A study of Mus musculus with 10 samples.

Results

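The 9 genes described here, *Phox2a*, *Prph*, *Stmn2*, *Tubb3*, *Elavl4*, *Nefm*, *Ina*, *Th* and *Dbh*, were taken by name from a comparison of *Nos1ap* null with wild-type mouse hearts. They are 9 of the 23195 genes of that comparison, and they were selected because their mean level was lower in the null hearts, so their difference between the groups is a description and carries no test. The hearts came from male C57BL6/J embryos at embryonic day 13.5, 5 of them wild type and 5 *Nos1ap* null, and polyA RNA of each was sequenced. The null embryos were homozygous for the tm1d allele, a constitutive deletion of an exon of *Nos1ap* with the *lacZ* and *neo* cassettes removed. It was derived, from C57BL/6N embryonic stem cells, through a floxed allele and a ubiquitous CMV-Cre, so that it is present in every cell, and the wild-type embryos carried no deletion. The comparison was made to look for molecular consequences of *Nos1ap* loss in the embryonic heart.

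The heart is innervated by sympathetic and parasympathetic neurons, which arise from the neural crest and reach it during development. Sympathetic neurons make noradrenaline from tyrosine through *Th* and *Dbh*, parasympathetic neurons release acetylcholine, and both express the transcription factor *Phox2a* as they form. Genes used widely in neurons include those of the intermediate filaments *Nefm*, *Ina* and *Prph*, the tubulin *Tubb3*, the growth cone protein *Stmn2* and the RNA-binding protein *Elavl4*.

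The table used holds a mean for each group, and whole read counts of the single libraries were derived from these means. Libraries are therefore numbered from 1 to 5 within a group by falling size factor, which is unrelated to the replicate numbers in the labels. The depth estimated for a library was 11328000 to 14023000 reads assigned to genes. *Nos1ap*, the deleted gene, stood at 126 to 161 normalized counts in the wild-type libraries and at 31.1 to 44.4 in the null libraries, so that no library went against its label. One library stood apart for the genes described here: wild-type library 3 was the highest of all 10 for each of the 9 genes. Fold changes are given with and without it. In hearts sequenced whole, fewer cells of a type and less RNA per cell cannot be told apart.

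The label of the 9 genes as autonomic was checked against marker lists. In wild-type library 3, where the general neuronal genes were high, the 2 enzymes that mark noradrenergic neurons were low, *Th* with 12 counts and *Dbh* with 11. *Chat*, which makes acetylcholine, had 0 counts there and at most 1.03 normalized counts in the other 9 libraries, so it was near 0 in all 10. *Slc18a3*, the vesicular acetylcholine transporter, stood at 16.3 normalized counts, from 16 reads, in that library and at 0 to 3.10 in the others. *Chat* and *Slc18a3* were named after their values were seen. Of the markers of sensory and central neurons, some were high in the same library and others were not, as given below. The data therefore go only in part with the label, and the genes are called the 9 neuronal genes here.

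The promoters of 4 of the genes are shown, since the 9 genes had their highest level in the same library, though *Th* and *Dbh* were low there too. These 4 span filaments, a transcription factor and the enzyme of catecholamine synthesis. RefSeq promoters on GRCm38.p6, each running from 250 bases before the transcription start to 50 after it, were matched for 7 of the 9 genes by symbol, with 10 promoters in all. Those of *Stmn2* and *Nefm* were not matched. The motifs searched, on both strands, were the cAMP response element TGACGTCA, the TATA box TATAAA and the homeodomain core TAATTA. Capitals mark the motifs found in the 4 sequences below.
Ina promoter, chr19:47014431-47014730, plus strand: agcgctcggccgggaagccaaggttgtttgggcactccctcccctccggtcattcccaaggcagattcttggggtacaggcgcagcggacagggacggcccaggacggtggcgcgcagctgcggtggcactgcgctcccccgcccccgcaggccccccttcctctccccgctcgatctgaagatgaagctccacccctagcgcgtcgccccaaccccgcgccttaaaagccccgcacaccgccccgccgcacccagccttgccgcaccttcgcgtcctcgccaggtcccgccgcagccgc
Prph promoter, chr15:99054924-99055223, plus strand: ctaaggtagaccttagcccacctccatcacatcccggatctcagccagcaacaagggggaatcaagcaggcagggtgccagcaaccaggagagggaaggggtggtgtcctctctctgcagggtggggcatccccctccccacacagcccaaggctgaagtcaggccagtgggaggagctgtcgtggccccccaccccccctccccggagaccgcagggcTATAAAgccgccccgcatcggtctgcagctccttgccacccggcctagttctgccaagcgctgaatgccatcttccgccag
Phox2a promoter, chr7:101818063-101818362, plus strand: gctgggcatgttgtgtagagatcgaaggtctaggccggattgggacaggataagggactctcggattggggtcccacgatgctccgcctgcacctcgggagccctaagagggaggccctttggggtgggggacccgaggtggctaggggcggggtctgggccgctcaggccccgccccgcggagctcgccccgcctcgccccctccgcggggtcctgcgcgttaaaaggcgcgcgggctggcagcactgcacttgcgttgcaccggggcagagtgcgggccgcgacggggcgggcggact
Th promoter, chr7:142899946-142900245, minus strand: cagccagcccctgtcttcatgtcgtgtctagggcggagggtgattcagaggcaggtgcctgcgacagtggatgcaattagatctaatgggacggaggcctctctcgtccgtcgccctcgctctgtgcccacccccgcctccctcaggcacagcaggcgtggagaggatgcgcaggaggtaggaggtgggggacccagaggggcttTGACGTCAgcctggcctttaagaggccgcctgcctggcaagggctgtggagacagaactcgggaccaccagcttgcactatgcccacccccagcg

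The *Th* promoter held the cAMP response element from 45 to 38 bases before the start, a motif present in 1.79% of 32851 promoters. The *Prph* promoter held the TATA box from 31 to 26 bases before the start, present in 13.6%. The homeodomain core was found in 2 *Elavl4* promoters, which overlap, and in 5.29% of all promoters. The remaining promoters of these genes held none of these letters in this window. No motif was shared by promoters of different genes among the 7 matched.

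*Ina*, *Nefm* and *Prph* encode intermediate filament proteins. *Ina* (chr19:47014698-47025327, plus strand) encodes alpha-internexin, and it stood at 0, 0.968, 616, 3.10 and 3.10 normalized counts in wild-type libraries 1 to 5. In the null libraries it stood at 1.80, 1.01, 2.02, 2.15 and 0. Outside wild-type library 3, where 605 reads were counted, no library held more than 3.10, so the gene was at the level of a few reads in both groups. The mean was 125 ± 275 (SD, n = 5) in wild type and 1.39 ± 0.896 (SD, n = 5) in null, a log2 fold change of -6.48. Without that library the wild-type mean was 1.79 ± 1.56 (SD, n = 4) and the log2 fold change was -0.36, with the groups overlapping.

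*Nefm* (chr14:68082590-68124846, minus strand) encodes the medium neurofilament chain. It stood at 20.01, 18.4, 1475, 23.7 and 17.6 normalized counts in the wild-type libraries and at 17.1, 14.1, 15.1, 23.6 and 19.6 in the null libraries. The 9 other libraries lay within 14.1 to 23.7, and library 3 of wild type was 62.1 times the second highest. With all libraries the log2 fold change was -4.12, and without library 3 it was -0.15. The wild-type mean of *Nefm* fitted 2 sets of counts, of which the one used here held a weight of 0.999998, while the other put the most reads, 755, in wild-type library 4.

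*Prph* (chr15:99055174-99058978, plus strand) encodes peripherin, a filament protein of neurons with axons outside the brain and spinal cord. It stood at 7.83, 10.6, 585, 4.13 and 11.4 normalized counts in the wild-type libraries and at 4.50, 3.02, 12.1, 9.66 and 8.71 in the null libraries. Apart from the 585 of library 3, the wild-type values fell inside the range of the null values. Leaving out library 3 took the log2 fold change from -4.03 to -0.16.

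*Tubb3* and *Stmn2* serve the growing axon and its microtubules. *Tubb3* (chr8:123411424-123422015, plus strand), the tubulin used most widely as a neuronal marker, stood at 47.8, 89.1, 906, 67.1 and 98.3 normalized counts in the wild-type libraries. In the null libraries it stood at 65.7, 39.2, 99.8, 71.9 and 69.7. Library 3 of wild type was 9.08 times the second highest, and the other 9 spread from 39.2 to 99.8. The log2 fold change was -1.80, and without library 3 it was -0.13.

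*Stmn2* (chr3:8509360-8561606, plus strand), which regulates microtubules in growth cones, stood at 33.1, 37.8, 575, 34.1 and 36.2 normalized counts in the wild-type libraries. In the null libraries it stood at 37.8, 29.2, 31.3, 41.9 and 19.6. The 4 wild-type values other than library 3 were within 33.1 to 37.8, inside the null range. Leaving out library 3 took the log2 fold change from -2.16 to -0.14.

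*Elavl4* (chr4:110203722-110351909, minus strand) encodes HuD, an RNA-binding protein of differentiating neurons. It stood at 43.5, 60.02, 237, 48.5 and 40.3 normalized counts in the wild-type libraries and at 44.1, 44.2, 47.4, 45.1 and 62.1 in the null libraries. Library 3 of wild type was 3.82 times the second highest, the smallest such excess among the 6 of these genes whose mean reached 10. The log2 fold change was -0.82 with all libraries and 0.01 without library 3.

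*Phox2a* (chr7:101818313-101822726, plus strand) is a homeodomain transcription factor needed by noradrenergic and other autonomic neurons. It stood at 2.61, 0.968, 39.7, 3.10 and 3.10 normalized counts in the wild-type libraries and at 0.90, 1.01, 2.02, 4.30 and 1.09 in the null libraries. The 39 reads of library 3 have an exact Poisson 95% interval of 27.7 to 53.3, which covers counting error only. The log2 fold change was -2.41 with all libraries and -0.39 without library 3, where both groups rest on 1 to 4 reads a library.

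The enzymes were low everywhere. *Th* (chr7:142892752-142931128, minus strand), tyrosine hydroxylase, stood at 1.74, 1.94, 12.2, 4.13 and 3.10 normalized counts in the wild-type libraries and at 0.90, 5.03, 2.02, 4.30 and 2.18 in the null libraries. The 12 reads of library 3 have an interval of 6.20 to 21.0 reads, and the second highest library held 5 reads. With all libraries the log2 fold change was -0.68, and without library 3 it was 0.08.

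*Dbh* (chr2:27165233-27183200, plus strand), dopamine beta-hydroxylase, stood at 2.61, 3.87, 11.2, 8.26 and 1.03 normalized counts in the wild-type libraries and at 5.40, 4.02, 5.04, 3.22 and 2.18 in the null libraries. Library 3 was only 1.36 times wild-type library 4, and the interval of its 11 reads, 5.49 to 19.7, contains the 8 reads of that library. The log2 fold change was -0.44 with all libraries and 0.01 without library 3. The means of *Th* and *Dbh* were under 10, and neither gene entered the test between genotypes described below.

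**Figure D1:**
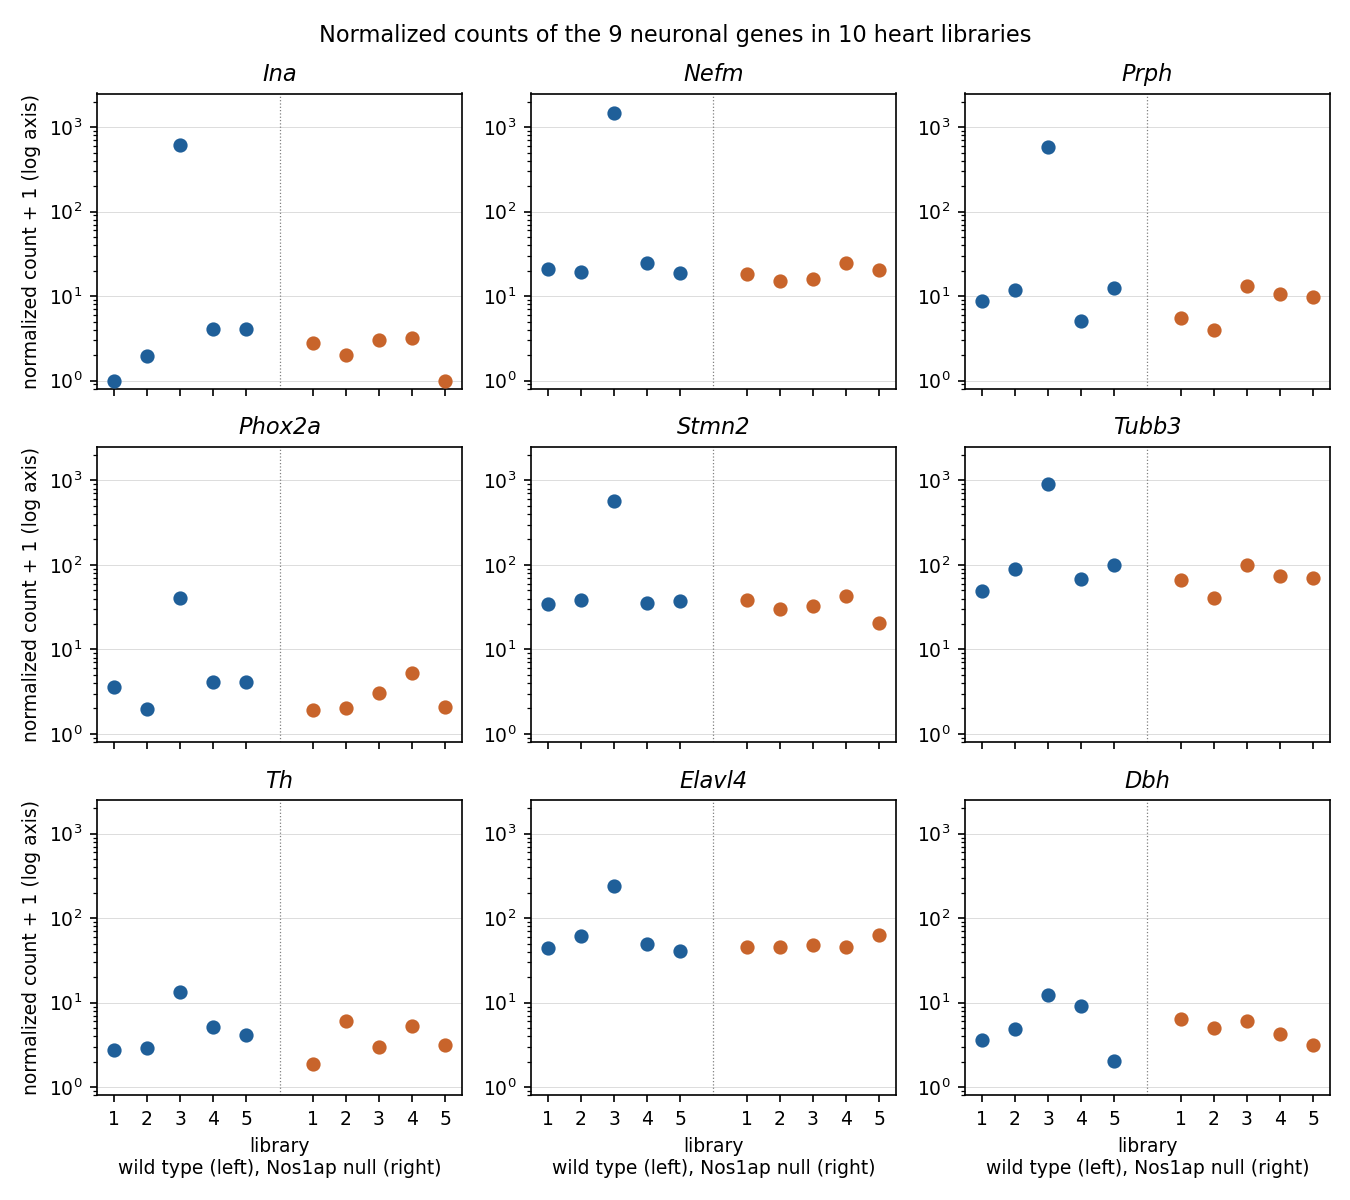
Normalized count plus 1 on a log axis (y) of each of the 9 neuronal genes in each library (x), with 5 wild-type libraries in blue and 5 *Nos1ap* null libraries in orange. Wild-type library 3 is the highest point in every panel, from 11.2 normalized counts for *Dbh* to 1475 for *Nefm*, and the other 9 libraries overlap between the groups.

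Across the 9 genes the null mean was the lower one for all 9, as the selection requires, with a median log2 fold change of -2.16. Without wild-type library 3 the median was -0.14, with 6 genes lower and 3 higher in null, and the ranges of the groups overlapped for all 9. That library held from 41.5% (*Dbh*) to 98.8% (*Ina*) of the summed wild-type level of a gene. Against the median of the other 9 libraries it was 2.89 times higher for *Dbh*, 5.26 times for *Elavl4*, 5.61 times for *Th*, 13.0 times for *Tubb3*, 16.9 times for *Stmn2*, 19.7 times for *Phox2a*, 67.2 times for *Prph*, 80.2 times for *Nefm* and 342 times for *Ina*. The excess was therefore unequal among genes that the same library led.

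**Figure D2:**
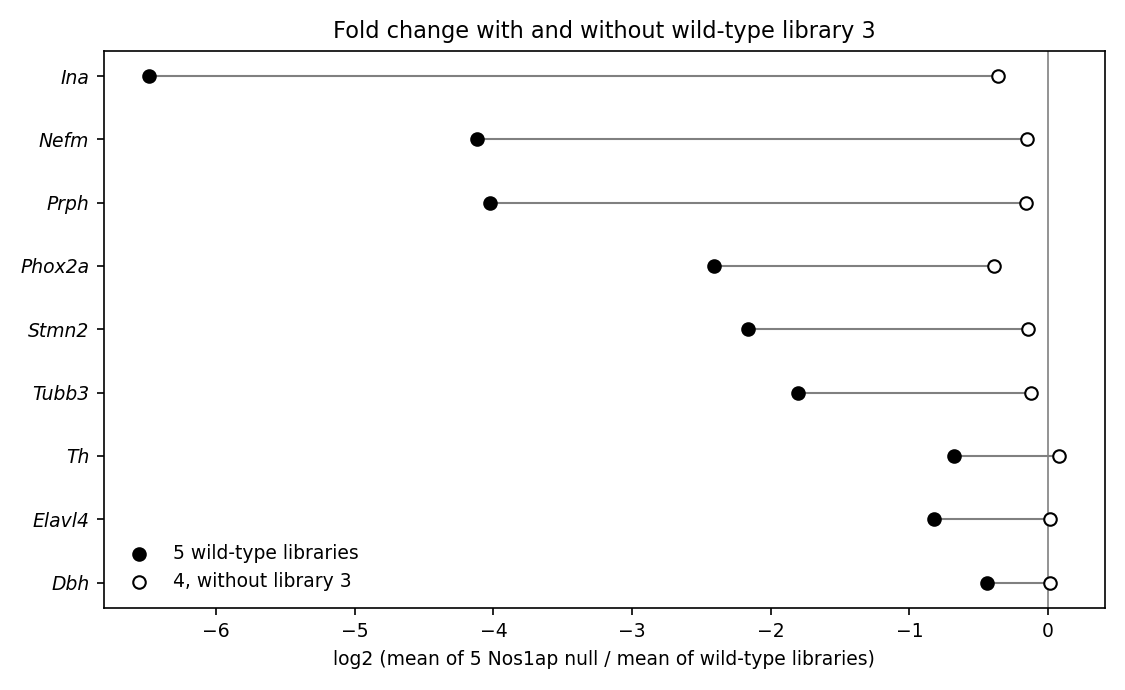
Log2 ratio of the mean of 5 null libraries to the mean of the wild-type libraries (x) for each gene (y), with all 5 wild-type libraries (filled) and with 4, leaving out library 3 (open). The filled points lie between -6.48 and -0.44 and the open points between -0.39 and 0.08.

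Levels were set beside each other per kilobase of exon, using the exon length of GENCODE M21. As the median of the 9 other libraries, *Tubb3* was highest at 37.3 normalized counts per kilobase, followed by *Elavl4* at 8.37, *Stmn2* at 6.08, *Prph* at 4.36, *Nefm* at 3.18, *Dbh* at 1.44, *Phox2a* at 0.991, *Th* at 0.921 and *Ina* at 0.556. In wild-type library 3 the order was *Tubb3* at 485, *Prph* at 293, *Nefm* at 255, *Ina* at 190, *Stmn2* at 103, *Elavl4* at 44.0, *Phox2a* at 19.5, *Th* at 5.17 and *Dbh* at 4.16 normalized counts per kilobase. *Ina* thus moved from the last place to the fourth. *Th* and *Dbh* rest on 12 and 11 reads in wild-type library 3, so their order there cannot be told. *Phox2a*, *Th* and *Ina* rest on a few reads in the other libraries, and their order there does not exceed that spread.

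The 14 lists of other genes show what else was high in that library, and no cause for it was tested. A gene was called led by 1 library when that library was at least 3 times the second highest, each with 1 added. Wild-type library 3 led 7 of all 9 neuronal genes, all but *Th* and *Dbh*. Of those whose mean normalized count reached 10 it led 6 of 6, while over all 11394 genes at that mean it led 102, or 0.895%. Since the 9 genes were chosen on the group means to which this library contributes, nothing is read from their counts. No wild-type library other than 3 led any of the 11394 genes, and among null libraries only library 2 did, with 19 genes, none of them on a list.

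**Figure D3:**
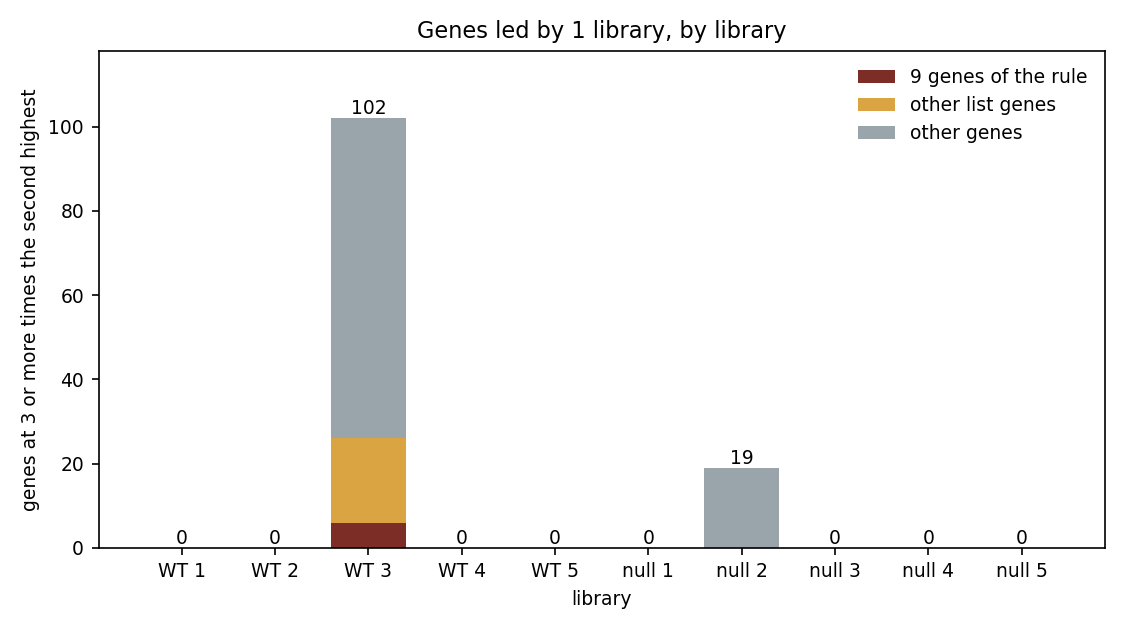
Number of genes (y) whose level in a library was at least 3 times that of the second highest library, for each library (x), split into the 9 neuronal genes, other list genes and other genes, among the 11394 genes whose mean reached 10. Wild-type library 3 led 102 genes, 6 of them among the 9 genes (the mean of *Phox2a* was under 10), and null library 2 led 19.

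The first 6 lists hold further neuronal genes. Of their 52 genes with derived counts, 41 (78.8%) were highest in wild-type library 3, against 15.0% of the 20259 genes detected with derived counts. Of 11 neuronal RNA-binding and synaptic genes all 11 were highest there, and 10 of 11 cytoskeleton and growth cone genes. *Elavl3*, a relative of *Elavl4*, stood at 309 normalized counts in wild-type library 3 and at 9.68 to 31.3 in the other 9 libraries. *Elavl2* stood at 252 against 16.6 to 43.0, and *Syt1*, of the release machinery of synapses, at 55.0 against 17.1 to 31. *Gap43*, a growth cone protein, stood at 670 against 209 to 272, and *Crmp1* at 559 against 161 to 203.

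The 8 neurotrophic receptor genes were all highest in wild-type library 3. *Ngfr*, the low-affinity neurotrophin receptor, stood at 318 normalized counts there and at 74.8 to 112 elsewhere, and *Ntrk2* at 339 against 19.1 to 105. *Gfra1* stood at 244 against 81.4 to 184 and *Ntrk3* at 149 against 53.3 to 137, so that these last 2 exceeded the other libraries by less. The ligands did not share this pattern: 2 of 7 were highest there, with *Sema3a* at 549 against 478 to 540, *Nrtn* at 47.8 against 25.9 to 72.2, *Ntf3* at 36.6 against 37.2 to 70.3, and *Bdnf* at 34.6 against 14.4 to 31.5.

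The genes closest to autonomic identity were mixed. Of 6 autonomic transcription factors with derived counts 4 were highest in wild-type library 3. *Isl1*, shared with cardiac progenitors, stood at 125 normalized counts there against 40.2 to 72.4, whereas *Gata2* at 261 and *Gata3* at 77.4 lay within the range of the other libraries, 238 to 285 and 49.0 to 94.8. Of 9 noradrenergic and chromaffin genes 3 were highest there. *Maoa* at 270, *Slc18a2*, the vesicular monoamine transporter, at 155 and *Gch1* at 62.1 lay within the other libraries' ranges of 257 to 287, 117 to 165 and 47.8 to 73.4. *Chga* and *Chgb*, granins of secretory vesicles that were named after their values were seen, stood at 43.8 against 0 to 2.01 and at 22.4 against 2.18 to 9.05. Of 7 cholinergic genes 5 were highest there, with *Chrna3*, a nicotinic receptor subunit of autonomic ganglia, at 67.2 against 0 to 3.27 and *Chrnb4* at 21.4 against 3.02 to 13.5. *Slc5a7*, the choline transporter, stood at 50.9 against 18.1 to 47.3, and *Ache* at 331 against 175 to 331. *Hand2* and *Ddc*, with means of 1919 and 720 normalized counts in wild type and 1859 and 728 in null, are given as the authors' means only.

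Some markers of other neurons moved with the 9 genes, and their part in the result was not tested. Of 11 central neuron markers 6 were highest in wild-type library 3, and their sum stood at 265 normalized counts there, at 16.5 to 33.1 in the other wild-type libraries and at 16.3 to 36.5 in the null libraries. *Slc17a6*, a vesicular glutamate transporter, stood at 117 in that library and at 0 to 1.01 in the others, while *Dlx2* stood at 16.3 against 1.94 to 8.28 and *Dlx1* at 11.2 against 1.03 to 6.21. Further central markers, named after their values were seen, lay within the range of the other libraries. They were *Gad2* at 4.07 (1.74 to 5.17), *Tbr1* at 4.07 (0.968 to 4.3), *Pax6* at 1.02 (0 to 4.3), *Gad1* at 1.02 (0 to 7.04) and *Lhx3* at 1.02 (0 to 2.15). *Mnx1*, 1 of the 6 highest there and also named after its value was seen, rested on 1 read. Of 11 sensory neuron markers 7 were highest there, with a sum of 363 against 108 to 171 in the other wild-type and 128 to 174 in the null libraries. *Scn10a* stood at 89.6 against 38.7 to 61.3, but *Runx1* at 33.6, *Calca* at 22.4 and *Avil* at 15.3 lay within 24.4 to 38.2, 12.4 to 55.7 and 10.7 to 27.2. *Tlx3* and *Prdm12*, sensory transcription factors named after their values were seen, stood at 41.7 and 17.3 against at most 4.36 and 1.03.

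Markers of glia and skeletal muscle were also higher in the same library. Of 8 neural crest and glia markers 7 were highest there, with a sum of 821 normalized counts against 350 to 430 in the other wild-type and 341 to 399 in the null libraries. *Sox10*, of neural crest and Schwann cells, stood at 141 against 6.44 to 16.2 and *Erbb3* at 341 against 215 to 303. Of 6 skeletal muscle markers 5 were highest there, with a sum of 154 against 15.7 to 19.4 and 13.5 to 32.2. *Myh3*, the embryonic myosin of skeletal muscle, stood at 103 against 0.968 to 4.35, *Myog* at 18.3 against 1.80 to 10.7 and *Myod1* at 13.2 against 0 to 1.80, while *Msc* at 13.2 lay within 6.30 to 15.

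Of 8 lung and foregut epithelium markers 7 were highest there, with a sum of 449 normalized counts against 331 to 409 and 338 to 404. *Epcam* stood at 13.2 against 0 to 6.03 and *Trp63* at 11.2 against 1.74 to 6.03, on 13 and 11 reads. *Krt8* stood at 161 against 112 to 159, and *Krt18* at 229 lay within 205 to 250. These 2 genes made up most of the sum, which therefore says little about the other genes of the list. Single genes were also compared, as the log2 ratio of wild-type library 3 to the median of the 10 libraries, each with 1 added. The median ratio was 2.05 for this list, 2.07 for glia, 2.11 for skeletal muscle and 0.07 for cartilage markers. Of 3 cartilage markers with derived counts 1 was highest there, with *Col9a1* at 486 against 181 to 460 and *Col9a2* at 341 within 225 to 347. The authors' means of *Col2a1* were 1496 in wild type and 1550 in null, those of *Hapln1* 1064 and 1052. *Myh7*, *Myh6*, *Myl2* and *Tnnt2*, the contractile genes of cardiomyocytes that mark the labelled tissue, had means of 128162, 61175, 39677 and 37532 in wild type and 129864, 64570, 39026 and 37652 in null.

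**Figure D4:**
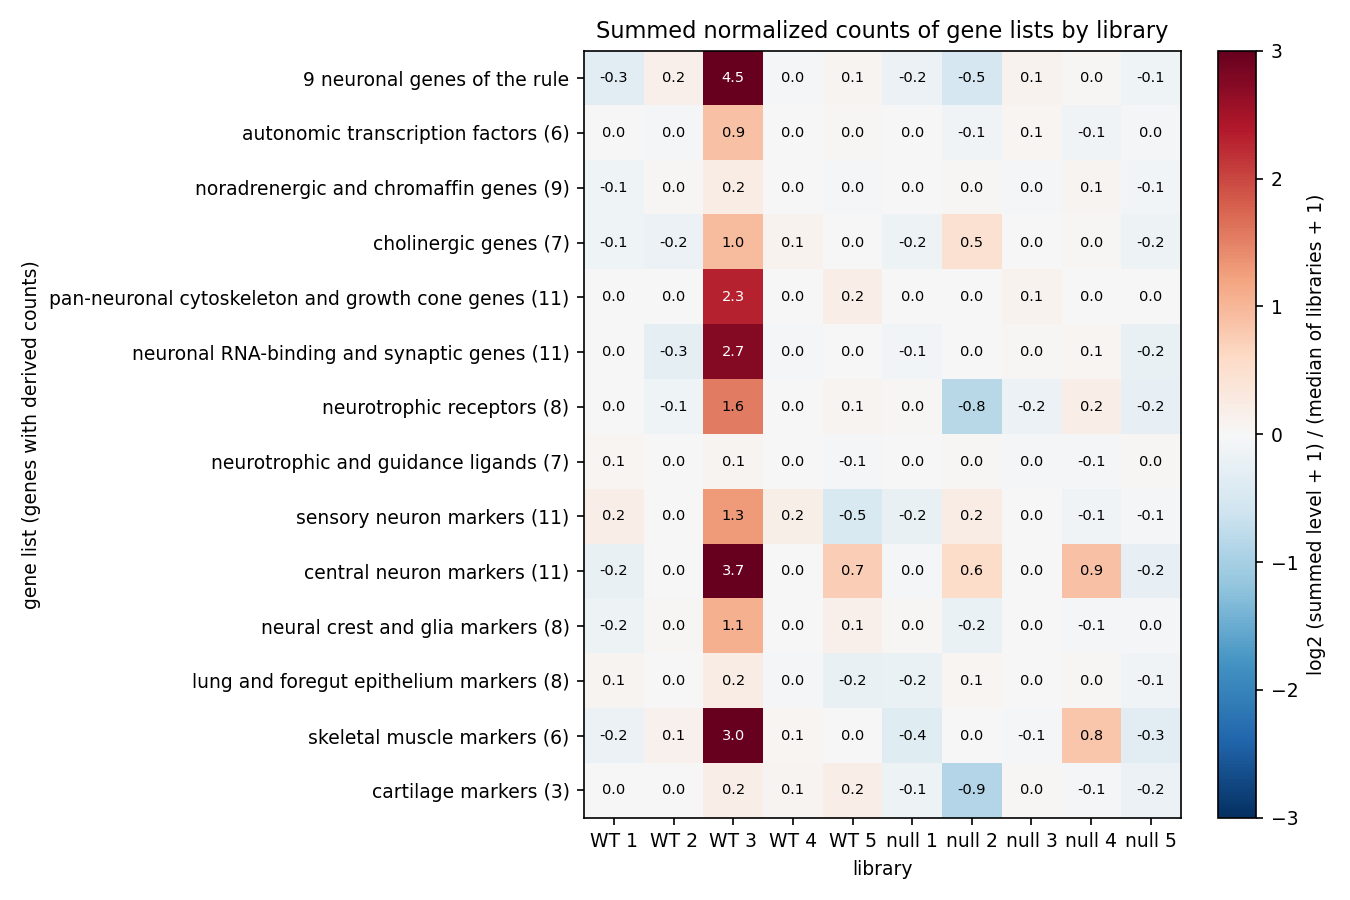
Summed normalized counts of each gene list (y, with the number of genes with derived counts) in each library (x), as the log2 ratio to the median of the 10 libraries, with colour ending at 3 on either side. In wild-type library 3 the sum was 22.7 times the median of the other 9 libraries for the 9 neuronal genes, 13.7 for central neuron, 8.74 for skeletal muscle, 2.45 for sensory neuron and 2.11 for glia markers. It was 1.17 times for noradrenergic and chromaffin genes, 1.17 for lung and foregut epithelium and 1.16 for cartilage markers, and 1.06 for ligands. The epithelium sum is mostly *Krt8* and *Krt18*, and the median log2 ratio of the single genes of that list was 2.05.

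The test between genotypes was run across all 11394 genes with limma on log2 of the normalized count plus 1, with Benjamini-Hochberg adjustment. It called 3 genes (0.0263%): *Nos1ap* (log2 fold change -1.83 ± 0.120, SE, adjusted p = 2.16e-08), *Gm7694* (-1.35 ± 0.0681, adjusted p = 3.67e-10) and *Mt2* (1.203 ± 0.177, adjusted p = 0.0068), of which the first 2 fell and *Mt2*, a metallothionein, rose in null. Without wild-type library 3 their log2 fold changes were -1.88, -1.37 and 1.18, and all 3 were called. Of 58 genes of the lists that entered the test 0 were called in either direction, with 3 at an unadjusted p under 0.05, and limma voom gave the same counts. Over all 11394 genes 406 had an unadjusted p under 0.05 with limma, and 391 with limma voom. Wild-type library 3 led 20 of these 58, which widens their spread in wild type, so the lack of calls says little about them. The 36 tested genes of the neuronal lists had a median log2 fold change of means of -0.55, and of 0.03 without wild-type library 3, where all 11394 genes had -0.01 and 0.00051.

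The genes whose levels followed those of the 9 most closely were found by Pearson's r over the 10 libraries, as a description that shares libraries and depth. Among the 10 closest were *Nefl* (r = 0.993), *Cadm3* (0.9899), *Stmn3* (0.988), *Crmp1* (0.986), *Slc17a6* (0.982), *Kif5c* (0.981), *L1cam* (0.979) and *Miat* (0.977). Since 1 library sets these values, r was taken again for the 10 over the 9 other libraries, where it lay between 0.25 for *Slc17a6* and 0.70 for *Nefl*. *Nefl*, the light neurofilament chain, stood at 987 normalized counts in wild-type library 3 and at 22.6 to 37.6 elsewhere, and *Miat*, a long noncoding RNA, at 272 against 3.10 to 10.7.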

How the data were processed

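PolyA RNA-seq libraries (KAPA Stranded mRNA-Seq) of embryonic day 13.5 hearts from 5 wild-type and 5 *Nos1ap* null males were analysed, grouped by their labels. Per the submitters' processing notes and the study's methods, reads were checked with FastQC 0.11.5, trimmed with Trimmomatic 0.36, aligned with STAR within RSEM 1.2.31 to GENCODE M10 (GRCm38/mm10), and compared with DESeq 1.24.0. The signal values that the authors deposited are group means of normalized counts, each library's counts divided by its size factor and averaged over 5 libraries. Further columns hold the authors' fold changes and p-values, which were not used. The table holds 23195 genes.

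Size factors were read from genes with 1 count in a group. For each group mean under 1000, every combination of 5 whole counts that returns the mean at its full printed precision was enumerated with Python 3.11.15, numpy 2.4.6 and numba 0.67.0. A set was kept when it held a weight of at least 0.99 under a prior that favours similar libraries and allows 1 library to differ with a weight of 0.05. Counts were settled for 20397 of 20551 wild-type and 20387 of 20535 null means. Tested on simulated means of 5 alike libraries or of 1 raised library, the cases that the prior favours, no settled set was wrong. Groups with more than 1 differing library were not simulated. RSEM counts need not be whole, and those here were whole as used for DESeq. For the 9 genes, 8 had 1 possible set in both groups. Between libraries of a group, the chi-square of counts per degree of freedom was 1.39 to 4.57, so that no pair agreed within sampling noise. The labels do not say whether embryos shared a litter, and p-values measure the spread between these samples.

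limma 3.58.1 (R 4.3.3; trend, robust) was run on log2(normalized count + 1) over genes of every type with counts settled in both groups and a mean of at least 10, two-sided, called at an adjusted p under 0.05. On simulated data for this comparison with 11394 genes it recovered 60%, 81% and 94.5% of changes of 0.5, 1 and 2 on the log2 scale. The simulated data held no library that stood apart, so these shares do not carry over to genes led by 1 library. Fold changes of the 9 genes are ratios of means without a pseudocount, and those from limma understate changes of low genes. Alternatives changed the pseudocount, the minimum mean, the model, the gene types, the scaling and the threshold for a leading library, and left out each library in turn. The 9 genes and the 14 lists were chosen with earlier results of these data known. Genes named are the 9, *Nos1ap*, the called genes, the 4 highest of each list by mean and the 10 most like the 9, and others are said to be chosen after their values were seen. A few of the genes so selected are not reported here. No per-sample column was left unmapped. Poisson intervals are exact at 95%. Promoters came from RefSeq, and gene coordinates from GENCODE M21, also on GRCm38.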

Additional observations from a re-analysis of the deposited data

Results flagged for a closer look

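For each of the 9 genes and the highest genes of each list with derived counts, 51 genes in all, the gap between the most extreme library of a group of 5 and its nearest neighbour was divided by the range of the group and set against Dixon's critical value of 0.71. Of 102 groups 29 exceeded it. A single group chosen in advance exceeds it by chance in about 1 in 20 cases, but these groups were not so chosen. They are not independent, since the same libraries enter every gene. The 9 genes were chosen on means to which wild-type library 3 contributes, and the lists with earlier results of these data known. All counts here are therefore a description, and no share over all genes is given beside them. In 8 of the 9 neuronal genes wild-type library 3, as the highest of its group, exceeded the critical value: *Nefm* at 0.996, *Ina* at 0.995, *Stmn2* at 0.991, *Prph* at 0.988, *Phox2a* at 0.945, *Tubb3* at 0.941, *Elavl4* at 0.90 and *Th* at 0.772. *Dbh* did not exceed it.

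The same library was the highest in wild type for 15 other genes: *Slc17a6* at 1.0, *Chrna3* at 0.998, *Sox10* at 0.970, *Myh3* at 0.967, *Elavl2* at 0.952, *Ntrk2* at 0.938, *Ngfr* at 0.930, *Elavl3* at 0.928, *Myod1* at 0.927, *Crmp1* at 0.916, *Gap43* at 0.864, *Epcam* at 0.862, *Myog* at 0.858, *Trp63* at 0.856 and *Chrnb4* at 0.841. In the null group 6 genes exceeded the value, with no library shared by more than 2 of them. These were *Slc17a6* (1.0, highest in library 3, on 1 read), *Chrnb4* (0.872, highest in library 1), *Runx1* (0.848, lowest in library 5), *Ntrk2* (0.825, lowest in library 2), *Elavl4* (0.817, highest in library 5) and *Ache* (0.711, highest in library 2).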

How the results depend on the processing

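No paired analysis was possible because the deposited group means carry no replicate number of the labels. The number of genes called between genotypes was 3 in every alternative, except 2 without null library 5, and leaving out 1 library gave 2 to 3. The number of genes led by 1 library was 121, and 237 at 2 times, 66 at 5 times and 293 with a mean of at least 1, and leaving out 1 library gave 19 (without wild-type library 3) to 129. The median log2 fold change of the 9 genes was -2.16, between -2.42 and -0.14 when 1 library was left out, with -0.14 without wild-type library 3, and -0.26 from medians over libraries with a pseudocount of 1, an alternative chosen after seeing the data together with leaving out libraries for the led genes. A pseudocount of 1 gave -1.93 and rescaling -2.16. Of 117 values of single genes 13 moved by more than the spread between replicates, 7 of them without wild-type library 3 and 6 with medians. The median of the other lists was -0.35, between -0.45 and 0.01 when 1 library was left out, with 0.01 without wild-type library 3. *Th*, *Dbh* and, outside that library, *Phox2a* and *Ina* rest on a few reads, which limits what can be seen of them. Group means of 1000 and above gave no counts of single libraries.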
